A study of Rattus norvegicus with 8 samples.

Results

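Microglia and complement genes were followed in the hippocampus of rats after intracranial self-stimulation. The set held 10 genes, Trem2, Tmem119, Cx3cr1, Csf1r, Aif1, P2ry12, C1qa, C1qb, C1qc and C3, taken by symbol from the platform annotation. All 10 were on the array, through 17 of its 45220 features, among 14871 genes with a symbol. In intracranial self-stimulation (ICSS) a rat earns brief trains of current through an electrode in the lateral hypothalamus, where such current is rewarding. The ICSS group held 4 pools from male Wistar rats of 13 weeks that took 2500 trains. The Sham group held 4 pools from rats of that strain, sex and age, which carried the electrode and stayed 40 min in the box with no current. Both groups had surgery, 7 days of recovery and earlier sessions of 20 min, so no rat lacked an implant. Each pool joined tissue of 3 rats from the side of the electrode, so single animals cannot be seen. Values are log2 ratios of a Cy5-labelled pool to a common Cy3-labelled reference of rat brain. That reference came from stimulated and sham rats. Its labels list hippocampus, thalamus and cortex from the side opposite the electrode, whereas the design text lists hippocampus from the electrode's side.

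Microglia are the resident macrophages of the brain. They depend on signals through the receptor that Csf1r encodes, and sense neurons through receptors such as those of Cx3cr1 and P2ry12. Complement is a cascade of secreted proteins that tags targets for removal. C1q, built from the chains of C1qa, C1qb and C1qc, starts the classical pathway, and C3 is the component on which the pathways meet. In the brain C1q comes chiefly from microglia, and in mice C1q and C3 take part in the removal of synapses during development. Trem2 encodes a lipid-sensing receptor of myeloid cells that signals through the adaptor encoded by Tyrobp.

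Array medians lay between -0.032 and 0.016, and arrays correlated with each other at 0.586 to 0.873, with Sham replicate 4 at 0.586 to 0.779. In every pool Neurod6, of hippocampal pyramidal neurons, lay above the reference, at 1.39 to 1.95, as did C1ql2, of dentate granule cells, at 1.76 to 2.75. Slc17a6 and Prkcd, which mark thalamic neurons, lay below it, at -3.04 to -1.85 and -2.98 to -1.71. In bulk tissue, fewer cells of a type and less RNA per cell cannot be told apart. Detection above background was not analysed here. With no dye swap, a dye effect of a feature cannot be told apart from its level against the reference, although it cancels between ICSS and Sham.

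ICSS pools and Sham pools were compared to ask whether self-stimulation shifted these genes. None of the 10 passed the threshold in limma (Benjamini-Hochberg adjusted p below 0.05), against 0.0461% of all 34738 units tested (0.0259% higher and 0.0202% lower), where a unit is a gene or an unnamed probe. The adjusted p from limma lay between 0.386 for Tmem119 and 0.960 for Cx3cr1. Means were higher in ICSS pools for C1qa, C1qb, C1qc and C3 and lower for the other 6 genes. The median difference, ICSS minus Sham, was -0.056 on the log2 scale, beside 0.0078 over all units. The groups overlapped in all 10 genes, whereas 7.80% of all units had groups that did not overlap. At an unadjusted p below 0.05 there was 1 of 10, Tmem119, against 12.6% of all units. By the two-sided exact permutation test there was none, with a lowest p of 0.0857 where the design allows 0.0286. In each of the 10 genes the difference was smaller than the range among Sham pools, as it was in 88.8% of all genes with a symbol. The median of the 10 differences turned to 0.097 when Sham replicate 1 was left out, to 0.019 for Sham replicate 2, to 0.0070 for ICSS replicate 2, and to 0.043 for ICSS replicate 4 and Sham replicate 1 together. Leaving out ICSS replicate 4 gave -0.095, Sham replicate 3 -0.11 and Sham replicate 4 -0.12.

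**Figure D1:**
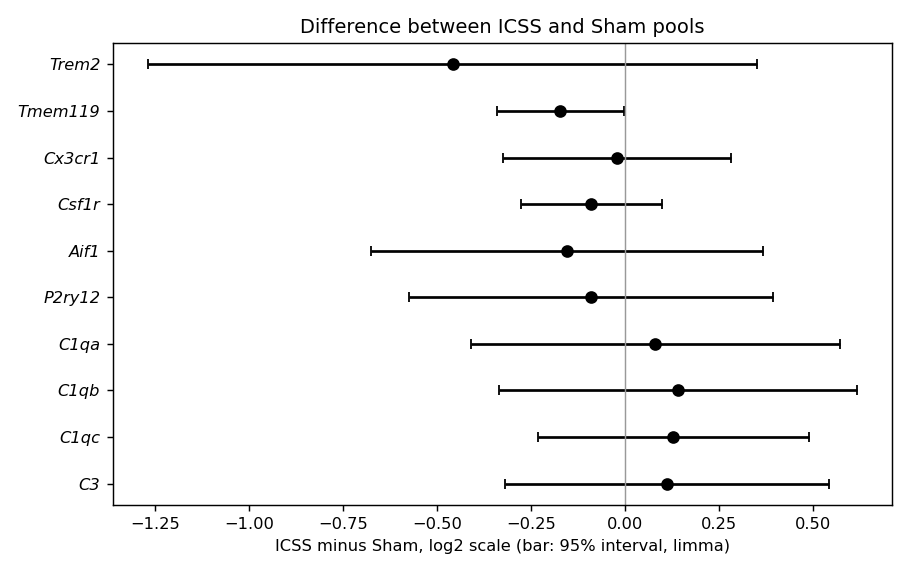
Difference between ICSS and Sham pools for the 10 genes, on the log2 scale (points), with the 95% interval from limma (bars, 4 pools per group). The differences run from -0.46 for Trem2 to 0.14 for C1qb, and the interval holds 0 for 9 of 10 genes, all but Tmem119, whose interval ends at -0.0035.

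The 3 C1q genes lie next to each other on rat chromosome 5 in the GRCr8 assembly, in the order C1qb, C1qc, C1qa. Their levels ran together from pool to pool, which is why upstream sequence is shown for C1qb and C1qa, and for Trem2, whose range over the pools was the widest of the 10. The bases stand 5′ to 3′ on the gene's strand, up to the annotated gene, from RefSeq (build GRCr8). Capitals mark GAGGAA or its reverse complement TTCCTC, searched on both strands, letters of the motif of PU.1, a transcription factor of myeloid cells. Other forms of that motif were not searched. The C1qb stretch is chr5:154407828-154408077, minus strand, that of C1qa chr5:154419934-154420183, minus strand, and that of Trem2 chr9:20151798-20152029, minus strand.
C1qb: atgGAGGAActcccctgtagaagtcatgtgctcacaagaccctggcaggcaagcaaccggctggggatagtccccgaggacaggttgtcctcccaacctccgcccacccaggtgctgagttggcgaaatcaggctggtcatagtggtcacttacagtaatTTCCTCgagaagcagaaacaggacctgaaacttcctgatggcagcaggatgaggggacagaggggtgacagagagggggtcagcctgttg
C1qa: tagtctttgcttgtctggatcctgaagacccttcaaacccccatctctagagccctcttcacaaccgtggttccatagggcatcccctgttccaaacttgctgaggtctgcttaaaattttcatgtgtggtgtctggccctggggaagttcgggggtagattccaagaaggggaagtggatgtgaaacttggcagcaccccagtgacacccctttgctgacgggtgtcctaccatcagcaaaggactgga
Trem2: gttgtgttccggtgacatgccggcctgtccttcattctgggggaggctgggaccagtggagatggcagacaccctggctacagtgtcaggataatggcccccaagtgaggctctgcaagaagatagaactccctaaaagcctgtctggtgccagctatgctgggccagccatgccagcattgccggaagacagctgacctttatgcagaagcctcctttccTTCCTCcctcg
The letters occurred 2 times upstream of C1qb, 0 times upstream of C1qa and 1 time upstream of Trem2. The Trem2 stretch had 232 bases and the others 250. Among 33469 rat promoters in the table, 23.3% held them in the 250 bases upstream, and so did 3 of the 6 promoters of the gene set that the table lists. A match is a description, not a binding site.

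C1qa, the gene of the C1q A chain, had log2 ratios of -0.66, -0.82, -0.81 and -0.15 in ICSS replicates 1 to 4, and -0.064, -0.66, -0.97 and -1.06 in Sham replicates 1 to 4. ICSS replicate 4 and Sham replicate 1 were high, the other 6 pools were low, and the groups overlapped. The group means were -0.61 ± 0.32 and -0.69 ± 0.45 (SD, n = 4 each), and ICSS minus Sham was 0.080 (SE 0.22, 95% interval -0.41 to 0.57, adjusted p = 0.905 by limma). C1qb, of the B chain, had -0.42, -0.51, -0.61 and 0.095 in ICSS replicates 1 to 4, and 0.071, -0.43, -0.72 and -0.92 in Sham replicates 1 to 4. ICSS replicate 4 and Sham replicate 1 were again at the top, and they alone lay above the reference. Its means were -0.36 ± 0.31 and -0.50 ± 0.43 (SD, n = 4 each), and ICSS minus Sham was 0.14 (SE 0.21, 95% interval -0.34 to 0.62, adjusted p = 0.819 by limma). C1qc, of the C chain, had -0.33, -0.59, -0.47 and 0.10 in ICSS replicates 1 to 4, and -0.090, -0.44, -0.63 and -0.63 in Sham replicates 1 to 4. The order was the same at the top, and the groups overlapped. Its means were -0.32 ± 0.30 and -0.45 ± 0.25 (SD, n = 4 each), and ICSS minus Sham was 0.13 (SE 0.16, 95% interval -0.23 to 0.49, adjusted p = 0.774 by limma). Without ICSS replicate 4 the differences of C1qa, C1qb and C1qc turned to -0.073, -0.013 and -0.014, and without Sham replicate 1 they were 0.29, 0.33 and 0.25.

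The array carried 2 features for C1qa, 2 for C1qb and 3 for C1qc. Both C1qa features spanned about the same range over the 8 pools, 1.00 and 1.03. Feature 1 of C1qb spanned 1.52 and feature 2 0.55, with ICSS replicate 4 and Sham replicate 1 highest on each. Features 1 and 3 of C1qc spanned 1.04 and 0.92, and feature 2 0.50. On that feature 2 the Sham pools lay between -0.32 and -0.21, so Sham replicate 1 was not set apart there, while ICSS replicate 4, at 0.044, was the highest pool. Over the 17 features of all 10 genes, 10 differences were above 0 and 7 below, and none passed in limma with each feature as a unit.

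**Figure D2:**
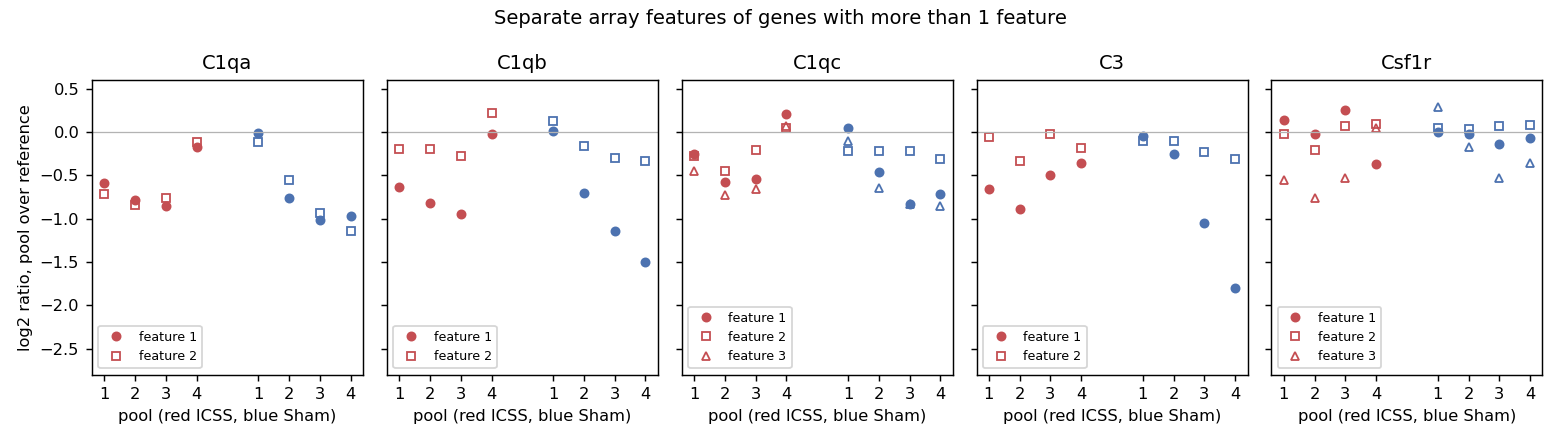
Log2 ratio of pool over reference in each of the 8 pools (x axis, replicates of ICSS in red and Sham in blue) for each array feature of the 5 genes with more than 1. The features of C1qa ran together, feature 2 of C1qb, C1qc and C3 spread less than feature 1, and of the Csf1r features only feature 3 had ICSS replicate 4 and Sham replicate 1 as its 2 highest pools.

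C3, the central complement component, had log2 ratios of -0.36, -0.62, -0.26 and -0.27 in ICSS replicates 1 to 4, and -0.076, -0.18, -0.64 and -1.05 in Sham replicates 1 to 4. The ICSS pools lay inside the Sham range, and Sham replicate 4 was lowest. The means were -0.38 ± 0.16 and -0.49 ± 0.45 (SD, n = 4 each), and ICSS minus Sham was 0.11 (SE 0.19, 95% interval -0.32 to 0.54, adjusted p = 0.844 by limma). Leaving out Sham replicate 4 gave -0.078, and leaving out Sham replicate 1 gave 0.25. The low value came from feature 1, at -1.80 in Sham replicate 4, where feature 2 read -0.31.

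Trem2 had log2 ratios of -0.51, -0.60, -0.60 and 0.59 in ICSS replicates 1 to 4, and 1.11, 0.11, -0.63 and 0.11 in Sham replicates 1 to 4. ICSS replicate 4 stood far above the other ICSS pools, Sham replicate 1 was the highest of all, and the groups overlapped. The means were -0.28 ± 0.58 and 0.18 ± 0.71 (SD, n = 4 each), and ICSS minus Sham was -0.46 (SE 0.36, 95% interval -1.27 to 0.35, adjusted p = 0.629 by limma). Leaving out ICSS replicate 4 gave -0.75 and leaving out Sham replicate 1 gave -0.15, and neither passed (adjusted p = 0.399 and 0.854 by limma). Without both it was -0.44 (adjusted p = 0.350 by limma).

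Csf1r, the receptor gene for the survival factors CSF1 and IL-34, varied less than Trem2. Its gene mean was -0.15, -0.33, -0.070 and -0.075 in ICSS replicates 1 to 4, and 0.11, -0.055, -0.20 and -0.12 in Sham replicates 1 to 4. Sham replicate 1 alone lay above the reference and ICSS replicate 2 was lowest. The group means were -0.16 ± 0.12 and -0.065 ± 0.13 (SD, n = 4 each), and ICSS minus Sham was -0.090 (SE 0.084, 95% interval -0.28 to 0.098, adjusted p = 0.686 by limma). Its features did not run together. Feature 3 spanned 1.04, with Sham replicate 1 at 0.29 and ICSS replicate 4 at 0.045, while feature 2 spanned 0.30. On feature 1 ICSS replicate 4 was the lowest pool, at -0.36.

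Cx3cr1, the fractalkine receptor gene, had log2 ratios of 0.10, -0.067, 0.13 and 0.22 in ICSS replicates 1 to 4, and 0.43, 0.32, -0.076 and -0.19 in Sham replicates 1 to 4. It was the 1 gene of the 10 whose mean lay above the reference in both groups, and the groups overlapped. The means were 0.098 ± 0.12 and 0.12 ± 0.30 (SD, n = 4 each), and ICSS minus Sham was -0.023 (SE 0.14, 95% interval -0.33 to 0.28, adjusted p = 0.960 by limma). P2ry12, which encodes the ADP receptor that steers microglial processes, had -0.0083, -0.38, -0.28 and -0.0032 in ICSS replicates 1 to 4, and 0.50, 0.17, -0.37 and -0.61 in Sham replicates 1 to 4. Its ICSS pools lay inside the Sham range. The means were -0.17 ± 0.19 and -0.079 ± 0.51 (SD, n = 4 each), and ICSS minus Sham was -0.090 (SE 0.22, 95% interval -0.57 to 0.39, adjusted p = 0.890 by limma). Without Sham replicate 1 the differences of Cx3cr1 and P2ry12 turned to 0.081 and 0.10.

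Aif1, the gene of the calcium-binding protein Iba1 by which microglia are stained, had log2 ratios of -0.25, -0.40, -0.35 and -0.066 in ICSS replicates 1 to 4, and 0.63, 0.029, -0.47 and -0.63 in Sham replicates 1 to 4. The Sham pools spread widely around the ICSS pools. The means were -0.27 ± 0.15 and -0.11 ± 0.57 (SD, n = 4 each), and ICSS minus Sham was -0.16 (SE 0.23, 95% interval -0.68 to 0.37, adjusted p = 0.814 by limma). It turned to 0.090 without Sham replicate 1. Tmem119, a surface marker of resident microglia, had the narrowest range of the 10, with -0.38, -0.42, -0.42 and -0.32 in ICSS replicates 1 to 4, and -0.042, -0.38, -0.27 and -0.16 in Sham replicates 1 to 4. Sham replicate 2 lay among the ICSS pools, and the other 3 Sham pools lay above them all. The means were -0.39 ± 0.049 and -0.21 ± 0.15 (SD, n = 4 each), and ICSS minus Sham was -0.17 (SE 0.076, 95% interval -0.34 to -0.0035, adjusted p = 0.386 by limma, exact permutation p = 0.0857).

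**Figure D3:**
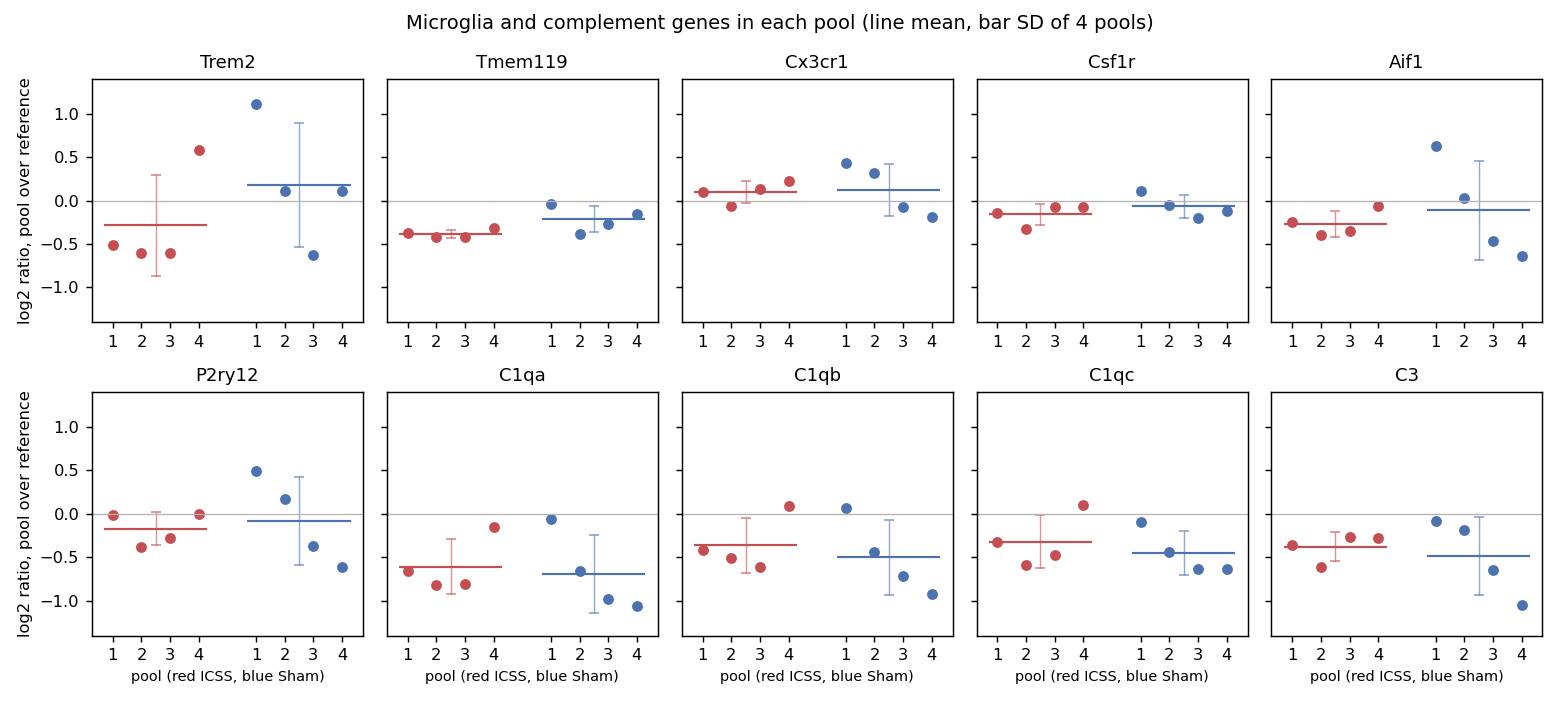
Log2 ratio of pool over reference for each of the 10 genes in the 4 ICSS pools (red) and 4 Sham pools (blue), with the group mean (line) and SD (bar). Sham replicate 1 was the highest Sham pool in all 10 panels and ICSS replicate 4 the highest ICSS pool in 8, and the groups overlapped in every panel.

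The larger pattern lay between pools of the same group. Sham replicate 1 was the highest Sham pool for 10 of 10 genes, while it was highest for 25.5% of all genes with a symbol. ICSS replicate 4 was the highest ICSS pool for 8 of 10, against 25.6% of all genes, with Csf1r and C3 a little higher in ICSS replicate 3. Both held at once for 8 of 10, against 7.39% of all genes. At the other end Sham replicate 4 was the lowest Sham pool for 6 of 10 and ICSS replicate 2 the lowest ICSS pool for 7 of 10, against 31.1% and 26.1% of all genes. The SD among Sham pools had a median of 0.44 over the 10 genes and 0.097 over all genes, and that among ICSS pools 0.18 and 0.089. The Sham SD of Trem2 was at or above that of 99.5% of genes, and its ICSS SD at or above that of 99.6%. Tmem119 and Csf1r stood out less, with Sham SDs at or above those of 73.8% and 68.3% of genes.

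The 10 genes also varied together, as a description of pools that share 1 reference. Pearson's r across the 8 pools had a median of 0.73 over the 45 pairs of genes, and 44 pairs were above 0. Without ICSS replicate 4 and Sham replicate 1 the median was 0.53 over 6 pools, and 33 pairs were above 0. With the mean of the C1q genes, r was 0.82 for Aif1, 0.81 for P2ry12, 0.81 for Cx3cr1, 0.75 for Trem2, 0.75 for C3, 0.60 for Csf1r and 0.27 for Tmem119.

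Among the other genes with a symbol, those whose 8 values were most like the mean of the C1q genes were Ncf1, Spp1, Ifi30, Gpnmb and Arl11, with r from 0.981 to 0.986. They were picked for that likeness, so the height of r is no finding. Without ICSS replicate 4 and Sham replicate 1, r was 0.88 to 0.96 for these 5 genes over 6 pools. Those 6 pools were among the 8 used to pick the genes, so this r is no separate finding either. Spp1, the osteopontin gene, stood at 0.38 in Sham replicate 1 and 0.068 in ICSS replicate 4, while the other 6 pools ran from -3.76 to -2.30. Gpnmb, a gene of lysosome-rich macrophages, stood at 1.11 and 1.19 in those pools, against -0.85 to 0.18 elsewhere. Ncf1, a subunit gene of the phagocyte NADPH oxidase, stood at 0.25 and 0.26, against -0.96 to -0.47. Ifi30, a lysosomal thiol reductase gene, stood at 0.18 and 0.12, against -0.39 to -0.12. For Csf1r the most like genes were Tmed3, Naprt, Plg, Tap2 and Or5b104, with r from 0.931 to 0.971, and 0.61 to 0.90 without Sham replicate 1 and ICSS replicate 2, the pools farthest from its median. These genes too were picked on the same pools, so neither r is a finding.

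**Figure D4:**
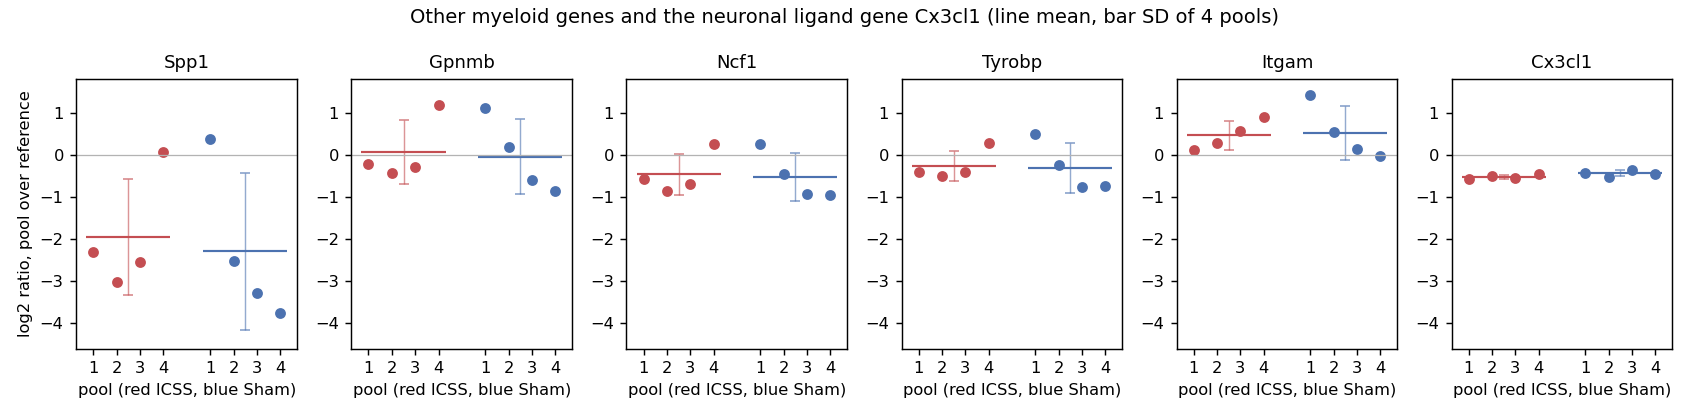
Log2 ratio of pool over reference in the 4 ICSS (red) and 4 Sham (blue) pools for 5 other myeloid genes and for Cx3cl1, with the group mean (line) and SD (bar). Spp1 had ICSS replicate 4 and Sham replicate 1 farthest above the other pools among these genes, and Cx3cl1 stayed between -0.58 and -0.35. Spp1, Gpnmb and Ncf1 were picked for likeness to the mean of the C1q genes, so that choice fixed their pool order.

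Markers of other cell types were set beside this pattern. The choroid plexus list, of the epithelium that makes cerebrospinal fluid, had 10 of 10 genes highest in Sham replicate 1 among Sham pools and 6 of 10 highest in ICSS replicate 4 among ICSS pools. Its median was 0.69 in Sham replicate 1, 0.033 in ICSS replicate 4, -0.15 in ICSS replicate 3; the remaining 5 pools ran from -0.93 to -0.47. Ttr, the transthyretin gene of that epithelium, was at 1.03 in Sham replicate 1 and 0.31 in ICSS replicate 4, against -2.41 to -0.82. Kcnj13, another of its markers, was at 1.25 and 0.079, against -2.41 to -1.11. Both were named after their values were seen. Other genes of the list did not set ICSS replicate 4 apart. Otx2 was at -0.45 there and 0.34 in ICSS replicate 3, and Slc4a5, also named afterwards, at -0.17 there and -0.088 in ICSS replicate 1. The list of pericytes, meninges and fibroblasts had its highest medians in Sham replicate 1 (-0.18), ICSS replicate 3 (-0.19) and ICSS replicate 4 (-0.22), against -0.77 to -0.57. In these pools the mean of the C1q genes was -0.027, -0.63 and 0.017, in that order, against -0.87 to -0.47 elsewhere. Border-associated macrophage genes had their highest medians in ICSS replicate 4 (0.13) and Sham replicate 1 (-0.0032), against -0.16 to -0.021. Of the 9 measured, 7 were highest in ICSS replicate 4 among ICSS pools and 4 in Sham replicate 1 among Sham pools. Pf4 and Folr2, markers of these macrophages named after their values were seen, set both pools apart. Pf4 was at 1.33 in ICSS replicate 4 and 1.14 in Sham replicate 1, against -0.39 to -0.0060, and Folr2 at 0.82 and 0.67, against -0.27 to 0.040. Mrc1, Cd163, Clec10a, Ms4a7 and F13a1 of the same list had another highest Sham pool. Mrc1 was at 0.19 in Sham replicate 4 and -0.0032 in Sham replicate 1, and Cd163 stayed between -0.15 and 0.084 in all pools. Monocyte and neutrophil genes had medians of -0.14 to -0.037, lymphocyte genes of -0.14 to 0.017 and endothelial genes of -0.17 to -0.062. Oligodendrocyte medians ran from -0.62 in Sham replicate 4 to 0.43 in ICSS replicate 3. Erythrocyte medians ran from -0.87 in ICSS replicate 1 to -0.087 in Sham replicate 4. Astrocyte medians ran from -0.16 in ICSS replicate 1 to 0.16 in ICSS replicate 4, and neuronal medians from 0.13 to 0.38. The part of choroid plexus, meningeal tissue or border-associated macrophages in the levels of the 10 genes was not tested.

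**Figure D5:**
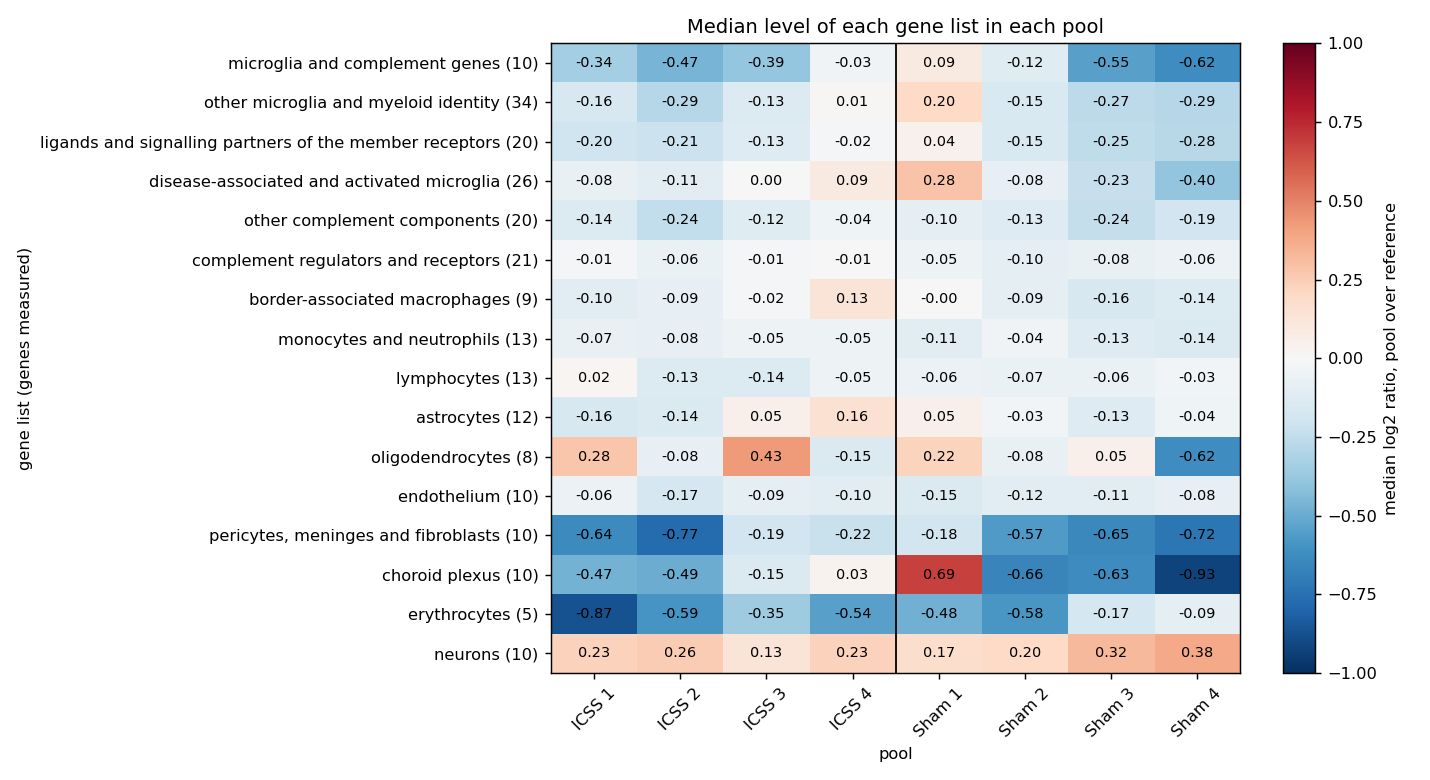
Median log2 ratio of pool over reference for 16 gene lists (rows, number of genes measured in brackets) in the 8 pools (columns), shown as colour. Sham replicate 1 and ICSS replicate 4 were the 2 highest pools in the rows of the 10 genes, other microglial genes, ligands and partners, activated microglia, other complement components, border-associated macrophages and choroid plexus. The row of other complement components ran only from -0.24 to -0.039. The rows of complement regulators and receptors, monocytes, lymphocytes and endothelium varied little. Those of oligodendrocytes and erythrocytes varied more, in other orders.

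Other genes of microglia and myeloid identity were counted from a wider list. Of 38 listed genes 34 were measured, and none passed in limma. An unadjusted p below 0.05 was found for 1 of 34, against 12.6% of all units. Means were higher under ICSS for 19 and lower for 15. Their median difference was 0.056, and -0.065 without ICSS replicate 4. Sham replicate 1 was the highest Sham pool for 29 of 34 and ICSS replicate 4 the highest ICSS pool for 24 of 34. Itgam, the CD11b gene, had 0.11, 0.28, 0.56 and 0.89 in ICSS replicates 1 to 4, and 1.42, 0.53, 0.14 and -0.023 in Sham replicates 1 to 4, and differed by -0.055 (SE 0.29, adjusted p = 0.953 by limma). Cd68, a lysosomal gene of phagocytes named after its values were seen, was at 0.43 in ICSS replicate 4 and 0.24 in Sham replicate 1, against -0.71 to -0.35. Some genes of the list went the other way. ICSS replicate 4 was the lowest ICSS pool for 1 of 34, Csf3r, at -0.36. Sham replicate 1 was the lowest Sham pool for 2 of 34, Crybb1 at -0.36 and Olfml3 at -0.21. Runx1, a transcription factor gene of blood and myeloid cells, had another order among ICSS pools, with -0.53, 0.20, -0.15 and 0.00100 in ICSS replicates 1 to 4, and -0.38, -0.74, -0.95 and -1.02 in Sham replicates 1 to 4, and differed by 0.65 (SE 0.17, adjusted p = 0.187 by limma). Selplg, a surface glycoprotein gene of leukocytes and microglia, differed by -0.14 (SE 0.066, adjusted p = 0.417 by limma).

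Ligands and partners of the receptors were measured for 20 of 23 listed genes. None passed in limma, against 0.0461% of all units, and none had an unadjusted p below 0.05, against 12.6%. Their median difference was -3.8e-05. Tyrobp, the adaptor gene of the TREM2 receptor, had -0.41, -0.50, -0.40 and 0.27 in ICSS replicates 1 to 4, and 0.49, -0.25, -0.75 and -0.74 in Sham replicates 1 to 4. ICSS replicate 4 and Sham replicate 1 were its highest pools, and it differed by 0.053 (SE 0.27, adjusted p = 0.951 by limma). Cx3cl1, the neuronal ligand gene of the Cx3cr1 receptor, varied little, from -0.58 to -0.47 in ICSS pools and from -0.52 to -0.35 in Sham pools, and differed by -0.088 (SE 0.058, adjusted p = 0.557 by limma). Csf1, a ligand gene of the Csf1r receptor, ran from 0.17 to 0.38 in ICSS pools and from 0.052 to 0.35 in Sham pools, and differed by 0.10 (SE 0.076, adjusted p = 0.610 by limma). Apoe and Clu, genes of lipid carriers that bind the TREM2 receptor, differed by -0.046 (SE 0.081, adjusted p = 0.844 by limma) and -0.031 (SE 0.11, adjusted p = 0.926 by limma). Entpd1, whose product breaks down extracellular ATP and ADP, differed by 0.12 (SE 0.066, adjusted p = 0.470 by limma), and Adam10, a sheddase gene, by 0.15 (SE 0.083, adjusted p = 0.496 by limma).

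Genes of disease-associated and activated microglia had 26 of 28 measured, with 18 higher and 8 lower means in ICSS pools and a median difference of 0.044. Of all units, 52.8% had a higher mean in ICSS pools. None passed in limma, and 3 of 26 had an unadjusted p below 0.05, against 12.6% of all units. Groups did not overlap for 3 of 26, against 7.80% of all units. Leaving out ICSS replicate 4 gave a median of -0.021, and leaving out Sham replicate 1 gave 0.21. Il1b, the interleukin 1 beta gene, had -0.043, -0.099, 0.26 and 0.087 in ICSS replicates 1 to 4, and -0.26, -0.36, -0.46 and -0.39 in Sham replicates 1 to 4. Its groups did not overlap, and it differed by 0.42 (SE 0.084, adjusted p = 0.125 by limma). Ccl2, a chemokine gene that attracts monocytes, had -0.053, 0.37, 1.02 and 0.56 in ICSS replicates 1 to 4, and -0.20, -0.30, -0.63 and -0.66 in Sham replicates 1 to 4. Its groups did not overlap either, and it differed by 0.92 (SE 0.20, adjusted p = 0.152 by limma). Without ICSS replicate 1 it passed, at a difference of 1.10 (SE 0.17, adjusted p = 0.0427 by limma), as did 153 of 34738 units. Sham replicate 1 was the highest Sham pool for 19 of 26 and ICSS replicate 4 the highest ICSS pool for 15 of 26. Lgals3, the galectin 3 gene, named after its values were seen, was at 1.55 in ICSS replicate 4 and 1.52 in Sham replicate 1, against -2.48 to 0.089. Tnf and Axl, also named afterwards, had other orders. For Tnf ICSS replicate 4 was the lowest ICSS pool, at -0.20, and for Axl Sham replicate 3 was the highest Sham pool, at 0.53.

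Among other complement components 20 of 23 listed genes were measured, 15 with a higher and 5 with a lower mean in ICSS pools. Of all units, 52.8% had a higher mean in ICSS pools. The list's median difference was 0.087, and 0.049 to 0.12 when single pools were left out. None passed in limma, and C8b alone of the 20 had an unadjusted p below 0.05, against 12.6% of all units. Sham replicate 1 was the highest Sham pool for 10 of 20 and ICSS replicate 4 the highest ICSS pool for 8 of 20. C1r and C1s, the proteases bound to C1q, differed by 0.16 (SE 0.13, adjusted p = 0.656 by limma) and 0.13 (SE 0.099, adjusted p = 0.609 by limma). C4a, of the next component of the classical pathway, whose feature may also read its near-identical copy, had -0.49, -0.78, -0.43 and -0.27 in ICSS replicates 1 to 4, and -0.45, -0.43, -0.70 and -0.90 in Sham replicates 1 to 4, and differed by 0.13 (SE 0.13, adjusted p = 0.713 by limma). C8b, of the membrane attack complex, differed by 0.17 (SE 0.070, adjusted p = 0.362 by limma). C9, which forms the pore of that complex, ran from -0.0056 to 0.23 in ICSS pools and from -0.090 to -0.017 in Sham pools, without overlap, and differed by 0.11 (SE 0.065, adjusted p = 0.509 by limma). It was the 1 gene of the 20 without overlap, against 7.80% of all units.

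Regulators and receptors of complement had 21 of 25 measured, 10 with a higher and 11 with a lower mean in ICSS pools, and a median difference of -0.0070. Sham replicate 1 was the highest Sham pool for 6 of 21 and the lowest for 6, and ICSS replicate 4 the highest ICSS pool for 9. None passed in limma, against 0.0461% of all units, and none had an unadjusted p below 0.05, against 12.6%. Serping1, the gene of the C1 inhibitor, had -0.21, -0.54, -0.013 and 0.11 in ICSS replicates 1 to 4, and 0.0077, 0.064, -0.54 and -0.93 in Sham replicates 1 to 4, and differed by 0.19 (SE 0.22, adjusted p = 0.757 by limma). C3ar1, the receptor gene for the C3a fragment, ran from -0.075 to 0.26 in ICSS pools and from -0.24 to 0.34 in Sham pools, with Sham replicate 1 highest, and differed by 0.11 (SE 0.12, adjusted p = 0.736 by limma). C5ar1, for the C5a fragment, differed by 0.24 (SE 0.15, adjusted p = 0.524 by limma). Cfi, the factor I gene, whose product cuts C3b, differed by 0.23 (SE 0.11, adjusted p = 0.431 by limma), and Calr, the calreticulin gene, by 0.19 (SE 0.11, adjusted p = 0.504 by limma).

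In the lists of other cell types no gene passed in limma, against 0.0461% of all units. An unadjusted p below 0.05 was found for 4 of 12 astrocyte and 2 of 10 endothelial genes, against 12.6% of all units. It was found for 1 of 10 neuronal and 1 of 9 border-associated macrophage genes, and for none in the other lists. Groups did not overlap for 1 astrocyte, 1 lymphocyte and 1 border-associated macrophage gene, against 7.80% of all units. The border-associated macrophage list had 7 of 9 measured genes higher in ICSS pools, beside 52.8% of all units, and a median difference of 0.11. Its F13a1, the gene of coagulation factor XIII A, differed by 0.39 (SE 0.13, adjusted p = 0.262 by limma), with Sham replicate 1 the lowest Sham pool at -0.74, the 1 gene of the list with that order, and Siglec1 by 0.12 (SE 0.060, adjusted p = 0.426 by limma). Neutrophil genes Np4 and S100a8 differed by -0.15 and 0.058, and the T cell genes Cd3d and Cd3g by -0.11 and -0.13, with medians of 0.0010 and -0.019 for their lists. Of the astrocyte genes, Gjb6, the connexin 30 gene, differed by 0.28 (SE 0.075, adjusted p = 0.194 by limma) and Sox9 by -0.43 (SE 0.14, adjusted p = 0.278 by limma), with a list median of 0.039. The median difference was 0.20 for oligodendrocyte genes, with Mobp and Mog at 0.40 and 0.48, and 0.038 for endothelial genes, with Slco1c1 and Pecam1 at -0.16 and 0.18. For pericytes, meninges and fibroblasts it was 0.17, with Col3a1 and Slc6a13 at 0.34 and 0.41, and for choroid plexus 0.097, with Kl and Otx2 at 0.21 and 0.44. For erythrocyte genes it was -0.13, with Hbb and Hbb-b1 at -0.30 and -0.19, and for neuronal genes -0.075, with Slc17a7 and Stmn2 at -0.20 and -0.12.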

How the data were processed

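The authors deposited 1 log2 ratio per feature for each of 8 two-colour arrays, with the pool in Cy5 and the reference in Cy3, per the labels. The submitters' processing notes name limma, with no version. How background and normalization were handled was not given in the sources used here, nor was the logarithm's base, taken as 2 because limma works with log2 ratios. The direction, pool over reference, follows the dyes. Each RNA input was 500 ng.

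Of 45220 features, 25353 had 1 gene symbol in the platform annotation, 48 had several and 19819 had none listed. Entrez identifiers gave current symbols from the GRCr8 gene table (25306 features matched). Features of a gene were averaged, giving 14871 genes and 19867 unnamed probes, 34738 units. ICSS was compared with Sham by limma 3.58.1 in R 4.3.3 (lmFit, eBayes, two-sided, no covariates, 6 residual and 3.83 prior degrees of freedom), p-values adjusted by Benjamini-Hochberg across the 34738 units, called below 0.05, and the fit was tested on simulated data. The exact permutation test used 70 assignments. The labels call the pools biological replicates, and precision is limited by having 8 arrays.

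The 10 genes and the lists were chosen with earlier results of these data known. Named were the 10 genes, up to 4 called genes of each other list filled to the 2 of smallest p, a list of partners and complement genes whatever their values, and the 5 genes most like the C1q mean and Csf1r. Neurod6, C1ql2, Slc17a6, Prkcd, Ttr, Kcnj13, Cd68, Lgals3, Pf4, Folr2, Mrc1, Cd163, Clec10a and Ms4a7 were added after values were seen. So were Slc4a5, Csf3r, Crybb1, Olfml3, Tnf and Axl. Alternatives covered scaling, a replicate block, weights, robust moderation, features and pools left out.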

Additional observations from a re-analysis of the deposited data

Results flagged for a closer look

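In 12 of 156 sets of 4 pools examined, 1 pool stood apart by Dixon's test at the 95% level, where chance flags about 1 in 20. The sets include genes picked for likeness to C1q or Csf1r, among them Gpnmb, Arl11 and Or5b104 below, whose pool order that choice fixed. Without the genes so picked there were 9 of 136 sets. Of all genes with a symbol, 5.93% of such sets were set apart in this way. Among the 10 genes this was 1 of 20 sets: Trem2 was at 0.59 in ICSS replicate 4, above -0.60 to -0.51 in the other ICSS pools. In the same pool Tyrobp was at 0.27 against -0.50 to -0.40, Gpnmb at 1.19 against -0.44 to -0.23, Arl11 at 0.36 against -0.28 to -0.21, and Slc17a7, a neuronal gene, at 0.77 against 0.48 to 0.52. In Sham replicate 1, Kl, a choroid plexus marker, was at 0.34 against -0.59 to -0.48, Gjb6 at -0.59 against -0.40 to -0.36 and Or5b104 at 0.16 against -0.050 to -0.031. In Sham replicate 4 the oligodendrocyte genes Mobp and Mog were at -1.03 and -1.01, below -0.22 to -0.15 and 0.044 to 0.24 in the other Sham pools. C9 was at 0.23 in ICSS replicate 3 against -0.0056 to 0.026, and the median of complement regulators and receptors was -0.065 in ICSS replicate 2 against -0.013 to -0.0059. The causes were not tested.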

How the results depend on the processing

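None of the 10 genes passed the threshold in limma under any of the 19 alternatives, and 174 of 190 values kept their direction. The replicate block, robust moderation and the fit on genes with a symbol leave each difference unchanged, so their directions were fixed in advance. Of the 16 values that turned, 12 came from leaving out single pools. With the median over features Csf1r was 0.021. Without ICSS replicate 4 and Sham replicate 1 together, a setting chosen after seeing the data, Cx3cr1 was 0.040, Aif1 0.024 and P2ry12 0.047. When single pools were left out, the values ranged from -0.13 to 0.081 for Cx3cr1, -0.33 to 0.090 for Aif1, -0.27 to 0.10 for P2ry12, -0.073 to 0.29 for C1qa, -0.013 to 0.33 for C1qb, -0.014 to 0.25 for C1qc and -0.078 to 0.25 for C3. The median of the 10 ranged from -0.12 to 0.097, and the calls among activated microglia genes from 0 to 1. Over all units the calls numbered 16, and 34 with quantile normalization, 34 with array quality weights, 53 with each feature as a unit and 1 without ICSS replicate 4 and Sham replicate 1. Replicate numbers are shared between groups, but same-numbered pools had correlations of deviations of only -0.053 to 0.058. With the replicate block there were 0 calls in limma, against 4543 units at an unadjusted p below 0.05, and the block changed no call among the 10 genes (lowest adjusted p = 0.356). Leaving out single pools gave 0 to 153 calls, with 0 without ICSS replicate 2 or 3 (3455 and 3311 units at an unadjusted p below 0.05), 153 without ICSS replicate 1, 6 without ICSS replicate 4, 1 without Sham replicate 1 or 3 and 10 without Sham replicate 2. The cause was not tested. With 4 pools per group, small changes in the 10 genes could have gone without a call. With all pools kept, a 95% interval that left out 0 was not enough to pass. Tmem119, with an interval of -0.34 to -0.0035, had an adjusted p of 0.386 by limma. Il1b, outside the 10 genes, had an interval of 0.23 to 0.61 and an adjusted p of 0.125 by limma. The smallest change that would pass was not tested.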
